A study of Mus musculus with 14 samples.

Results

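*Fcrls*, *Fcrl1* and *Cd5l* lie side by side on mouse chromosome 3, and their RNA was measured in CD11b+ cells sorted with magnetic beads from injured brains. These 3 genes, of 33939 in the deposited table, were chosen on their genotype and hemisphere values in these same libraries. Their values are therefore given as a description, with no test. There are 14 libraries, 4 each of Ctrl CL and Ctrl IL and 3 each of cKO CL and cKO IL, where IL is the hemisphere hit by controlled cortical impact (traumatic brain injury, TBI) and CL the opposite one, both taken 3 days later. Ctrl mice were Cx3cr1-CreER+/-, and cKO mice carried in addition a homozygous floxed allele. All were tamoxifen-treated male C57BL/6 mice aged 8 to 12 weeks, so the Ctrl mice also carried the Cre driver and received the drug. The Cre is driven from *Cx3cr1*, which is active in microglia and in other *Cx3cr1*-expressing macrophages and monocytes, all of which CD11b sorting retains. The libraries bear the numbers of 8 mice, of which 6 gave both hemispheres. Library depth was 12.2 to 41.6 M reads assigned to genes (M being 1000000 reads), and levels are in counts per M of those reads (CPM).

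The Fc receptor-like family consists of immunoglobulin-domain proteins related to the receptors for antibody Fc parts, and most of its classical members are receptors of B cells. *Fcrl1* encodes such a B cell surface receptor. *Fcrls* encodes a family member that also has a scavenger receptor cysteine-rich domain, and it is among the best-known signature genes of mouse microglia. *Cd5l* encodes a secreted scavenger receptor cysteine-rich protein of tissue macrophages, also called AIM, which is known to keep macrophages alive and to be induced through the nuclear receptor LXR.

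In GRCm38 (GENCODE M21), *Fcrls* (ENSMUSG00000015852) runs from 87250758 to 87263738 on the minus strand. *Cd5l* (ENSMUSG00000015854) runs from 87357881 to 87371073 and *Fcrl1* (ENSMUSG00000059994) from 87376387 to 87402934, both on the plus strand. The *Cd5l* and *Fcrl1* starts lie 94.1 and 113 kb from that of *Fcrls*, and 5313 bases separate the end of *Cd5l* from *Fcrl1*. None of the 3 shares exonic bases with another gene, and no transcript of another gene matched theirs at 90% identity or more. The sequences before the 3 RefSeq starts (GRCm38.p6) are shown because the genes are neighbours that did not move together. The stretches for *Fcrl1* (chr3:87376137-87376386, plus strand) and *Cd5l* (chr3:87357631-87357880, plus strand) are the 250 bases before the start. That for *Fcrls* (chr3:87263600-87263677, minus strand) is the part of its window outside annotated exons, which lies 76 to 153 bases before the RefSeq start and within an intron of its shorter transcript. This *Fcrls* stretch is downstream of the GENCODE start at 87263738, from which the distances were taken, and so lies inside the GENCODE gene. Capitals mark GAGGAA or its reverse complement TTCCTC, the core that PU.1, the lineage factor of macrophages and B cells, binds.
*Fcrls*: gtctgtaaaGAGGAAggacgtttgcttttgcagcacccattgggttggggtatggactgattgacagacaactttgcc
*Fcrl1*: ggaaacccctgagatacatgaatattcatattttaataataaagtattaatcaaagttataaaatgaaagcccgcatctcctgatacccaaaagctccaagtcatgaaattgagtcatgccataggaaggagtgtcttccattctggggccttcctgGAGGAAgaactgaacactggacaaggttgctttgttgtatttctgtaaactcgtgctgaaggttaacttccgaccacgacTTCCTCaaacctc
*Cd5l*: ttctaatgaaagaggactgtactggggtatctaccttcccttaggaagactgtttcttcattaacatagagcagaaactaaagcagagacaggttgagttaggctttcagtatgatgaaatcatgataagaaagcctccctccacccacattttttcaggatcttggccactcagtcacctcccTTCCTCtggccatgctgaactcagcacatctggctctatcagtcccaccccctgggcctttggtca
On both strands, the printed *Fcrls* and *Cd5l* stretches held 1 match each and that of *Fcrl1* held 2. Of the 32851 RefSeq windows of 250 bases, 23.3% held at least 1, a share that does not apply to the shorter *Fcrls* stretch of 78 bases. The RUNX core TGTGGT, searched likewise, had no match in the printed stretches, but the window of 250 bases of *Fcrls* held 2 in the part within exons that is not printed, and 14% of all windows held at least 1. The motifs were chosen after the sequences were seen, and a match is a description of the letters only.

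*Fcrls*, the microglial signature gene, was high in each Ctrl library and lower by a similar amount in each cKO library, in both hemispheres. In Ctrl CL it was at 3506, 3904, 2853 and 3596 CPM (mice 3541, 3545, 3546 and 3551). In Ctrl IL the same mice had 3091, 3391, 3372 and 3631 CPM. The Ctrl hemispheres thus overlapped, with means of 3465 ± 442 and 3371 ± 221 CPM (SD, n = 4 each). In cKO CL it was at 441, 408 and 377 CPM (mice 788, 791 and 3592), and in cKO IL at 420, 358 and 488 CPM (mice 784, 791 and 3592). The cKO hemispheres overlapped too, at 409 ± 31.9 and 422 ± 64.9 CPM (SD, n = 3 each), while the lowest Ctrl library was far above the highest cKO library. The cKO mean was 7.99-fold lower in IL and 8.47-fold lower in CL. On log2(CPM + 1) values after scaling for library composition, the cKO minus Ctrl differences were -2.98 (SE 0.13) in IL and -3.02 (SE 0.19) in CL. The IL minus CL differences were 0.05 (SE 0.17) in Ctrl and 0.10 (SE 0.12) in cKO, both smaller than their SE. In bulk RNA, fewer cells expressing a gene and less RNA of it per cell cannot be told apart.

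**Figure D1:**
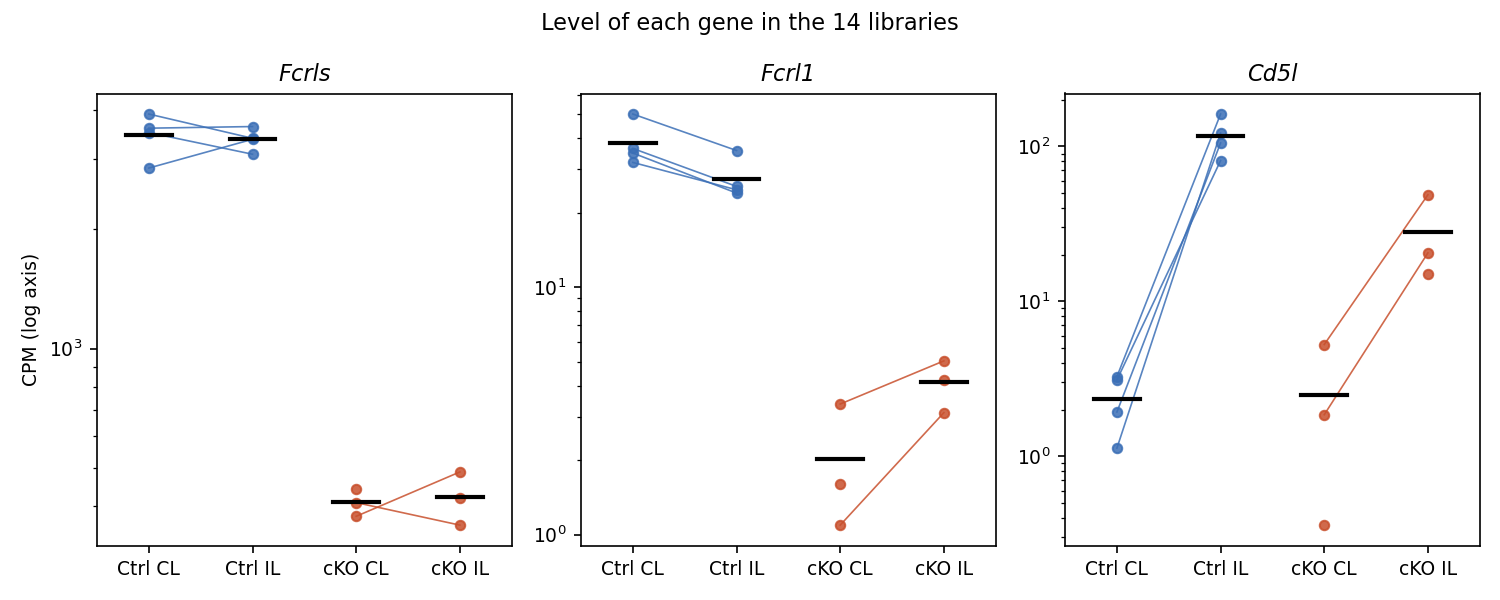
Levels of *Fcrls*, *Fcrl1* and *Cd5l* in CPM on log axes for the 14 libraries in 4 groups (Ctrl blue, cKO orange), each point a library, lines joining the hemispheres of a mouse and black bars group means. *Fcrls* and *Fcrl1* separate by genotype in both hemispheres, whereas *Cd5l* separates first by hemisphere and, in IL, by genotype.

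*Fcrl1*, the B cell receptor gene, was far below *Fcrls* per length in Ctrl and lower still in cKO. In CPM per kb of exonic length, Ctrl CL had 10.8 ± 2.27 for *Fcrl1* and 1484 ± 189 for *Fcrls* (SD, n = 4). In Ctrl CL *Fcrl1* was at 31.9, 36.4, 50.1 and 34.8 CPM, and in Ctrl IL at 24.8, 25.5, 35.7 and 24.0 CPM, in the order of mice above. In each of the 4 Ctrl mice IL was below CL, with IL to CL ratios from 0.689 to 0.775, although the groups overlapped. In cKO CL it was at 1.61, 1.09 and 3.37 CPM and in cKO IL at 4.21, 3.11 and 5.04 CPM, again overlapping, and both cKO mice with 2 hemispheres had more in IL, with ratios of 1.49 and 2.85. No Ctrl library overlapped with a cKO library. The lowest cKO CL value rests on about 30 reads, against 436 or more in each Ctrl library. The cKO mean was 6.67-fold lower in IL (4.12 ± 0.966 against 27.5 ± 5.49 CPM) and 18.9-fold lower in CL (2.02 ± 1.2 against 38.3 ± 8.07 CPM), or 28.4-fold in CL without cKO mouse 3592. The log2 differences between genotypes were -2.46 (SE 0.18) in IL and -3.71 (SE 0.26) in CL. Between hemispheres they were -0.38 (SE 0.17) in Ctrl and 0.86 (SE 0.28) in cKO, so that the genotype by hemisphere interaction had a value of 1.21 (SE 0.33).

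*Cd5l*, the secreted macrophage protein, had the opposite layout, near the floor in CL and high in IL. In Ctrl CL it was at 3.27, 1.93, 1.13 and 3.11 CPM, and in Ctrl IL at 162, 105, 122 and 81.0 CPM. IL exceeded CL in each of these mice, by 26.0-fold to 108-fold. In cKO CL it was at 0.360, 1.86 and 5.27 CPM, a range that encloses the Ctrl CL values. The lowest of these is about 13 reads. In cKO IL it was at 15.1, 20.6 and 48.8 CPM, above each CL library and below each Ctrl IL library, and the cKO mice with both hemispheres had IL to CL ratios of 11.1 and 9.26. The IL means were 117 ± 34.0 CPM in Ctrl and 28.1 ± 18.1 CPM in cKO, a 4.17-fold difference, which was 6.59-fold without the library of cKO mouse 3592. The log2 differences between hemispheres were 5.22 (SE 0.30) in Ctrl and 3.21 (SE 0.56) in cKO, ranking 4 and 9 by size among the genes tested. Between genotypes they were -2.13 (SE 0.38) in IL and -0.14 (SE 0.45) in CL, and the interaction was -2.03 (SE 0.66).

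**Figure D2:**
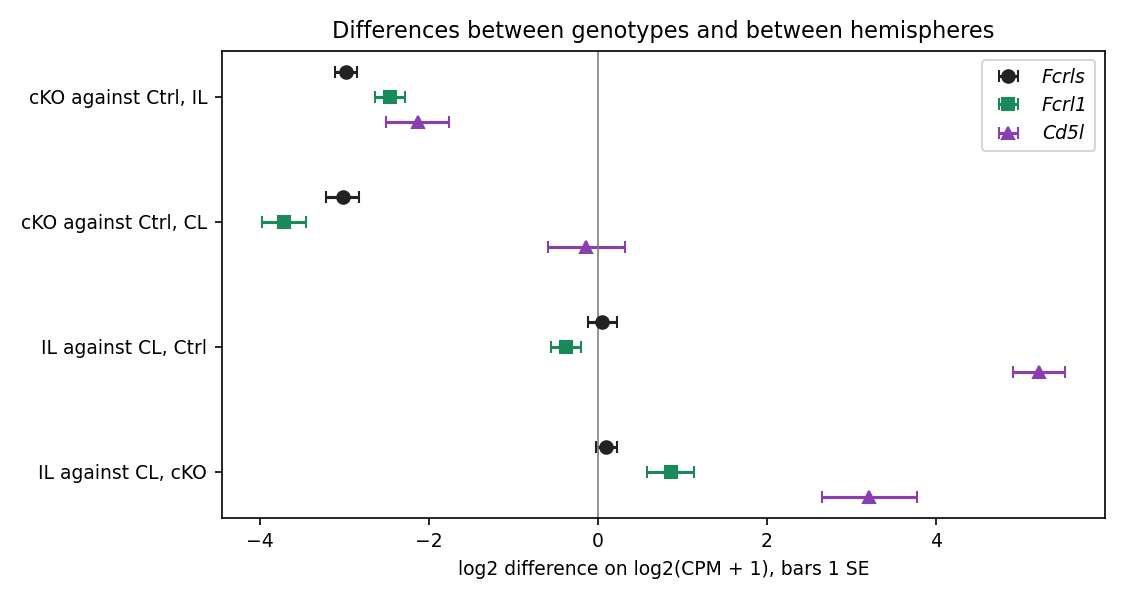
Log2 differences with bars of 1 SE for the 3 genes, between genotypes in each hemisphere (IL -2.98, -2.46 and -2.13 for *Fcrls*, *Fcrl1* and *Cd5l*) and between hemispheres in each genotype. *Fcrls* lies near 0 in both hemisphere comparisons, and *Cd5l* lies near 0 only between genotypes in CL.

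Between genotypes the libraries did not overlap for 3 of the 3 genes in IL and 2 of the 3 in CL, where 10.3% and 10% of all genes tested did not overlap. Between hemispheres only *Cd5l* did not overlap, in Ctrl as in cKO, against 17.7% and 42.4% of all genes. Since the genes were chosen on these comparisons, nothing is read from these shares. The comparisons between genotypes and those between hemispheres use the same libraries, so they are not independent of each other. All 3 genes passed the filter on low values in each comparison. Of the sum of squares over the 14 libraries, genotype took 98.8% for *Fcrls* and 93.6% for *Fcrl1*, and hemisphere took 83.5% for *Cd5l*. The medians over 18476 genes were 5.45% for genotype and 13.1% for hemisphere. For *Cd5l*, genotype took 5.81%, the interaction 4.42% and the spread within groups 6.32%.

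Whether the genes around the cluster differed in the same way was examined over 210 other genes of the table with a start within 5 Mb of that of *Fcrls*. Here a gene was called with a limma adjusted p of at most 0.05 over all genes tested and a fold change of at least 1.2. In IL, 4 of the 128 tested neighbours were called between genotypes (3.12%), against 0.664% of all genes, and in CL 3 of 123 (2.44%), against 0.905%. All of these calls were lower in cKO. The count in IL was 2 without the library of Ctrl mouse 3541 or 3551 or cKO mouse 791, and 1 without that of cKO mouse 784. Within 1 Mb, 1 of 25 tested genes was called in IL and 0 of 25 in CL by limma, with 4 and 7 at an unadjusted p under 0.05, and over the whole of chromosome 3, the neighbours included and the 3 genes left out, the calls were 18 of 848 (2.12%) and 24 of 830 (2.89%). The median log2 difference of the neighbours within 5 Mb was 0.01 in IL and -0.03 in CL, beside 0.02 and -0.01 over all genes tested. At an unadjusted p under 0.05 were 17 of the 128 in IL and 21 of the 123 in CL, beside 1550 of 16873 and 1701 of 16570 over all genes.

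*Tpm3*, which encodes an actin-binding tropomyosin and starts 2.81 Mb from *Fcrls*, was at 566 ± 28.3 CPM in Ctrl IL and 130 ± 8.22 in cKO IL, and at 555 ± 19.4 in Ctrl CL and 144 ± 5.41 in cKO CL. Its log2 differences were -2.09 (SE 0.12, limma adjusted p = 9.9e-05) and -1.89 (SE 0.14, adjusted p = 6.75e-05), and it was called in each of 16 other settings in both hemispheres. *Tpm3* matches *Tpm3-rs7* over 2108 bases at 99.1% identity, so its reads could be split with that copy. The noncoding *1500004A13Rik* fell in both hemispheres, with log2 differences of -1.80 in IL (SE 0.22, adjusted p = 0.00859) and -1.65 in CL (SE 0.21, adjusted p = 0.00528). It lost its call in IL without the library of cKO mouse 784 or 791, with an adjusted p of up to 0.057. The pseudogene *5830417I10Rik*, which matches *Gon4l* over 2894 bases at 98.7% identity, fell with log2 differences of -2.78 in IL (SE 0.42, adjusted p = 0.0308) and -2.18 in CL (SE 0.38, adjusted p = 0.0287). It lost the call in 5 of 16 other settings in IL and 7 of 16 in CL, with adjusted p values of up to 0.156. *1500004A13Rik* matches *Gm43713* over 1852 bases at 99.5% identity, and for both transcripts the values are uncertain. These are the longest matches, and stretches of any length at 90% identity or more were found in 364 other genes for *1500004A13Rik*, 8 for *Tpm3* and 3 for *5830417I10Rik*.

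Among the genes tested in all 4 comparisons, the 10 nearest to the start of *Fcrls* were taken, 5 on each side, of which only *Prcc* was called between genotypes, and only in IL. *Prcc*, a gene known from renal carcinoma translocations, starts 0.622 Mb away and was at 12.2 ± 2.01 CPM in Ctrl IL and 5.5 ± 0.988 in cKO IL, a log2 difference of -1.01 (SE 0.17, adjusted p = 0.0419). In CL the difference was -0.76 (SE 0.17, adjusted p = 0.0994), and without any of 6 of the 7 IL libraries (all but that of Ctrl mouse 3546) the call in IL was lost, with adjusted p of up to 0.242 over all settings. The other 9 were *Gm10705*, *Cd1d1* (lipid antigen presentation), *Dclk2*, *Lrba*, *Rps3a1* (a ribosomal protein), *Etv3* (an ETS-family repressor), *Arhgef11*, *Pear1* and *Sh2d2a*. *Cd1d1*, 0.264 Mb away, had log2 differences of -0.23 in IL and 0.05 in CL (adjusted p = 0.836 and 0.959). Over the 10 genes the differences ranged from -1.01 to 0.61 in IL and from -0.76 to 0.80 in CL. Within the same stretch, 4 further genes were tested between genotypes but not in all 4 comparisons, namely *Kirrel*, *Mab21l2*, *Lrrc71* (in IL only) and *Fcrl5* (in CL only), and none of them was called. The largest difference among them was that of *Mab21l2*, 0.715 Mb away, at 1.39 in CL and 0.57 in IL (adjusted p = 0.136 and 0.337).

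**Figure D3:**
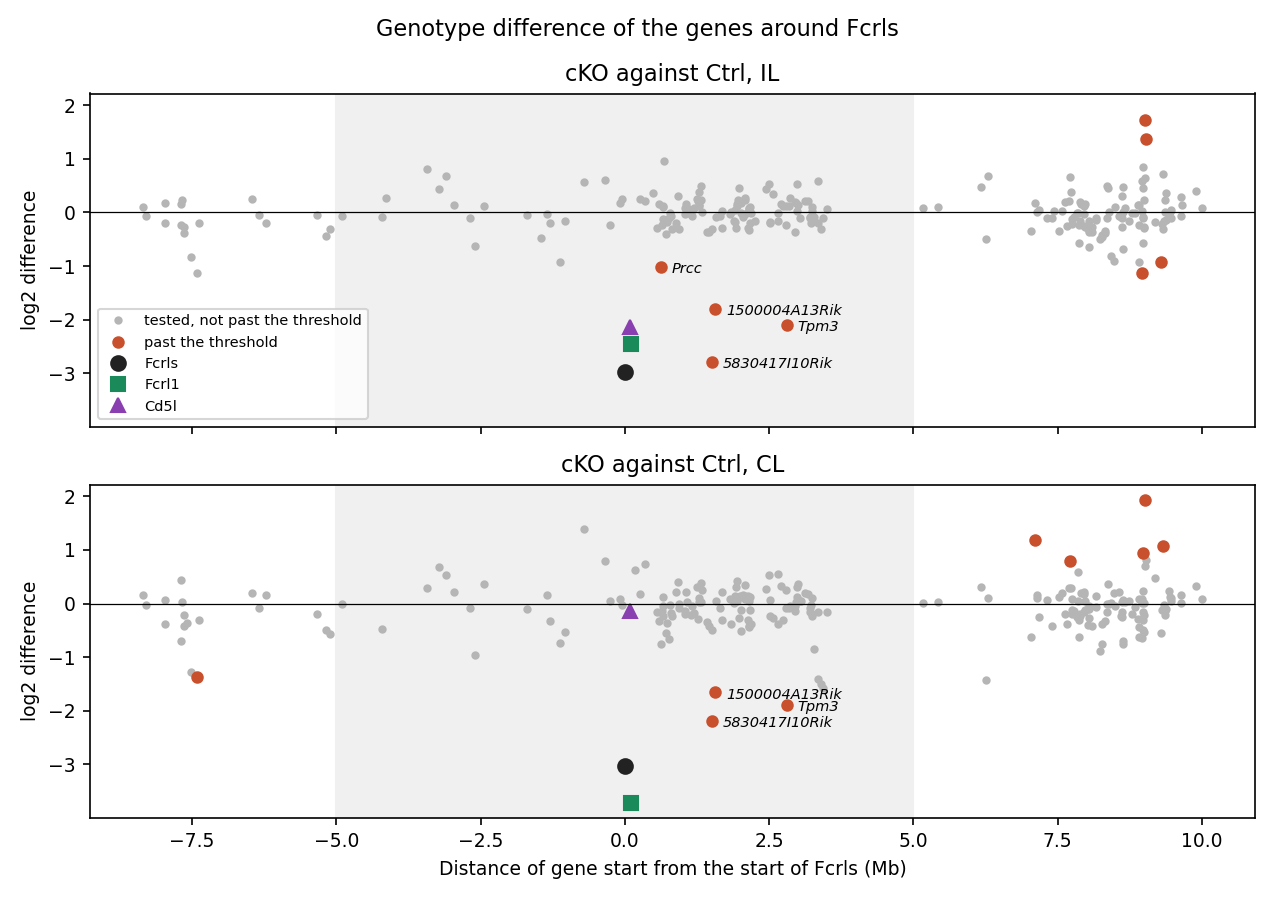
Log2 difference between cKO and Ctrl in IL (top) and CL (bottom) against the distance of each gene's start from that of *Fcrls* in Mb, with genes past the threshold in orange, the others in grey and the window of 5 Mb shaded. Most neighbours lie near 0, and leaving out *Fcrls* (black circle), *Fcrl1* (green square) and *Cd5l* (purple triangle), 4 of the shaded genes in IL and 3 in CL are past the threshold.

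Between hemispheres, 3 of 120 neighbours were called in Ctrl (2.50%), against 7.52% of all genes, and 31 of 127 in cKO (24.4%), against 23.1%. With the mouse as a block in the fit, the calls in Ctrl were 20 of 120 (16.7%), against 20.5% of all genes. The count in Ctrl was 1 without Ctrl CL 3545, Ctrl IL 3541 or Ctrl IL 3545, 5 without Ctrl CL 3541 and 9 without Ctrl IL 3546. In cKO it was 17 without cKO CL 788, and 9, 10 and 13 without the IL library of mouse 784, 791 or 3592. For the genotype by hemisphere interaction, limma called 0 of 138 neighbours and 0% of all 18476 genes, with 1 and 490 at an unadjusted p under 0.05.

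*Fcrls* was then set beside 20 other homeostatic microglial genes, those that resting microglia express and of which many are known to decline on activation. This list and the others below were drawn up with earlier results of these libraries known. Per length, *Fcrls* ranked 7 of 21 by level in Ctrl CL (1484 CPM per kb) and 4 of 21 in Ctrl IL, but 16 of 21 in cKO CL and 13 of 21 in cKO IL. Between hemispheres in Ctrl, 10 of the 20 fell in IL and 0 rose, where 3.33% of all genes were lower and 4.18% higher, and the list's median log2 difference was -0.89 beside -0.03 over all genes. In cKO 12 fell and 0 rose, where 10.8% were lower and 12.3% higher, with a median of -0.84. The adenosine diphosphate receptor gene *P2ry12* fell from 4372 ± 706 to 1597 ± 181 CPM in Ctrl and from 4814 ± 700 to 1758 ± 108 in cKO (adjusted p = 0.00261 and 0.00362). *Cst3*, *P2ry13* and *Slc2a5* fell in Ctrl too, with log2 differences of -1.62, -1.48 and -1.23 (adjusted p = 0.0478, 0.00133 and 0.0217). In cKO, *P2ry13*, *Cst3* and *Selplg* fell next after *P2ry12*, with -1.36, -1.32 and -1.16 (adjusted p = 0.00239, 0.0318 and 0.0104). With the mouse as a block, which in cKO keeps the 2 mice with both hemispheres, 16 of the 20 fell in Ctrl and 12 in cKO, where *Cst3* lost its call (adjusted p = 0.0961) and *Slc2a5* gained one. Over all genes that block called 20.5% in Ctrl and 17.6% in cKO, the shares beside which the blocked counts of the lists below stand. Without 1 library the count in Ctrl was 5 (Ctrl IL 3545 or 3551) or 6 (Ctrl IL 3541, Ctrl CL 3545 or 3551). The *Fcrls* value of 0.05 lay above all 20 in Ctrl, where *C1qa* came closest at -0.20. In cKO the *Fcrls* value of 0.10 lay above 19 of the 20 and below *C1qa* at 0.20.

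Between genotypes the order was turned round. *Fcrls* lay below all 20 list genes in both hemispheres, and the lowest of them was *Olfml3*, which encodes a secreted matrix protein, at -1.13 in IL (SE 0.16, adjusted p = 0.0243) and -1.05 in CL. *Olfml3* was the 1 of 20 list genes called in IL, where 0.664% of all genes were called, at 989 ± 137 CPM in cKO and 2189 ± 147 in Ctrl, and it was not called without any one of Ctrl IL 3541, 3545 or 3551 or any of the 3 cKO IL libraries. In CL, limma called 0 of the 20, against 0.905% of all genes, with 1 at an unadjusted p under 0.05. The list medians were 0.14 in IL and 0.08 in CL. The summed level of the 20 genes ran from 71610 to 84860 CPM in cKO CL and from 74270 to 87340 CPM in Ctrl CL. In IL it ran from 39570 to 45920 CPM in cKO and from 37960 to 43320 CPM in Ctrl, so the genotypes overlapped in both hemispheres.

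**Figure D4:**
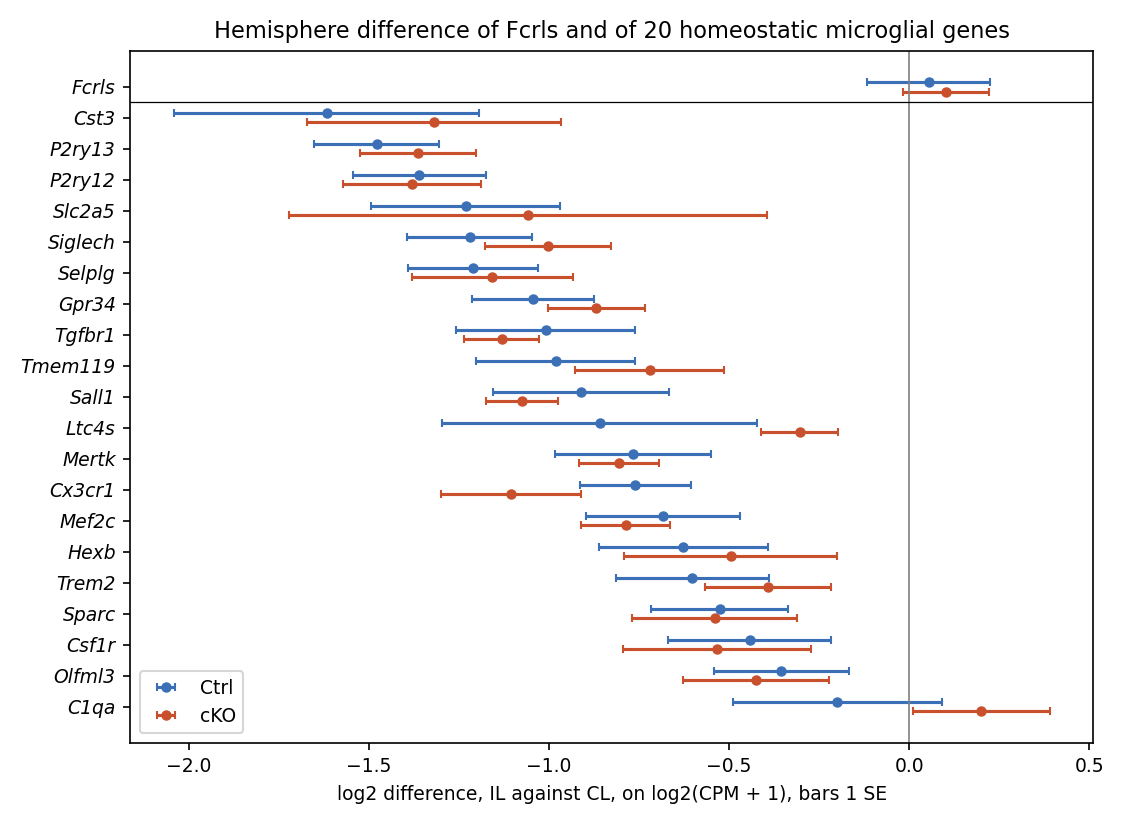
Log2 difference between IL and CL with bars of 1 SE in Ctrl (blue) and cKO (orange) for *Fcrls* (top row) and 20 homeostatic microglial genes, ordered by the Ctrl value. *Fcrls* is at 0.05 and 0.10, while the list runs from -1.62 to -0.20 in Ctrl and from -1.38 to 0.20 in cKO.

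Because *Fcrl1* marks B cells, the B cell markers were read beside it. Their summed level over 20 genes was 635 to 970 CPM in Ctrl CL and 713 to 834 CPM in cKO CL, and 371 to 434 CPM in Ctrl IL and 368 to 539 CPM in cKO IL. These sums consisted mostly of *Ighm*, the immunoglobulin mu chain gene, with a mean of 642 CPM in Ctrl CL. The defining markers *Cd79a* and *Ms4a1* were at most 0.968 CPM in each library, and *Pax5* at most 0.328 CPM. Other markers were well detected, with 15.5 to 41.8 CPM for *Cd79b*, the partner of *Cd79a* in the B cell receptor, and 8.99 to 72.5 CPM for *Bank1* over the 14 libraries. Per length in Ctrl CL, *Cd79b* and *Bank1* had means of 24.0 and 6.98 CPM per kb, on either side of *Fcrl1* at 10.8, while *Cd79a* and *Ms4a1* had 0.388 and 0.0778. No marker was at 0 throughout a group, and 12 of the 20 stayed under 1 CPM in Ctrl CL and in cKO CL, and 13 in Ctrl IL and cKO IL. Between genotypes limma called 0 of 11 tested markers in IL and 0 of 13 in CL, with 2 and 1 at an unadjusted p under 0.05, and medians of -0.06 in both. Between hemispheres 4 of 9 were called in Ctrl and 4 of 10 in cKO, namely *Bank1*, *Ighm* and *Ighd*, which fell, and *Cd22*, which rose. Of all genes 7.52% were called in Ctrl and 23.1% in cKO. The B cell receptor inhibitor *Cd22* rose from 19.2 ± 6.31 to 41.7 ± 13.2 CPM in Ctrl (adjusted p = 0.0361), and its call in cKO was lost with the mouse as a block (adjusted p = 0.0784). The count was 2 in Ctrl without Ctrl CL 3545, and 1 in cKO without cKO CL 788 or cKO IL 3592.

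Of the other 4 Fc receptor-like genes, 3 were low, at 1.10 CPM or less in each library. *Fcrl5*, the next family gene on chromosome 3, was at most 0.697 CPM in each library, *Fcrl6* at most 0.0830 CPM and 0 in all 3 cKO IL libraries, and *Fcrla* at most 1.10 CPM. *Fcrl5* was at 0.663 ± 0.031 CPM in cKO CL and 0.0987 ± 0.106 CPM in Ctrl CL, a log2 difference of 0.62 that missed the threshold (limma adjusted p = 0.0887). In CL it passed the filter only through the cKO libraries, with 23, 18 and 18 reads, against 0, 3, 2 and 4 in Ctrl CL. Its p-values are thus conditioned on the difference, and nothing is read from them. *Fcrl5* was called in CL in 3 other settings, with all 14 libraries in a single fit, with the mouse as a random effect and without a filter on low values (adjusted p = 0.0142, 0.0213 and 0.0355). In the fits of all 14 libraries it again passed the filter only through cKO libraries, and these calls are no support. At this low level the difference depends on the pseudocount, with 1.0 for a pseudocount of 0.5 and 2.13 for 0.1 (adjusted p = 0.0792 and 0.106). *Fcrlb*, an intracellular family member of chromosome 1, was the 1 called between hemispheres, of 1 other family gene tested in Ctrl and 3 in cKO, where 7.52% and 23.1% of all genes were called. It rose in IL from 0.572 ± 0.153 to 3.07 ± 0.604 CPM in Ctrl and from 0.814 ± 0.704 to 3.10 ± 0.697 CPM in cKO (adjusted p = 0.00133 and 0.0139), with log2 differences between genotypes of 0.02 in IL and 0.16 in CL. Between genotypes limma called 0 of the 2 other family genes tested in each hemisphere, with 0 in IL and 1 in CL at an unadjusted p under 0.05. That 1 is *Fcrl5*, which was tested in CL only through its cKO values. Without cKO IL 791 the *Fcrlb* call in cKO was lost (0 called).

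*Cd5l* was read beside genes that share its protein fold, its regulators and its cell of origin. Of the scavenger receptor cysteine-rich family, *Msr1*, a macrophage receptor for modified lipoproteins, was the 1 of 9 tested members called between hemispheres in Ctrl and the 1 of 11 in cKO, where 7.52% and 23.1% of all genes were called. It rose from 36.0 ± 7.67 to 484 ± 110 CPM in Ctrl (log2 difference 3.79, SE 0.24, adjusted p = 0.000128) and from 80.4 ± 71.0 to 676 ± 142 CPM in cKO (3.52, SE 0.57, adjusted p = 0.0059). With the mouse as a block, *Ssc4d* and *Lgals3bp* also rose in Ctrl, and *Lgals3bp* in cKO. The count was 2 without Ctrl CL 3541 in Ctrl, and 2 without cKO CL 791 or cKO IL 3592 in cKO. Between genotypes *Msr1* differed by 0.51 in IL (adjusted p = 0.616), with the higher mean in cKO. limma called 0 of 12 in IL and 0 of 8 in CL between genotypes, with 1 and 0 at an unadjusted p under 0.05.

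Of 15 LXR receptor and target genes, 4 rose in IL in Ctrl and 0 fell, and in cKO 4 rose and 1 fell. Over all genes tested 4.18% rose and 3.33% fell in Ctrl, and 12.3% rose and 10.8% fell in cKO. *Nr1h3*, which encodes LXR alpha, rose from 2.37 ± 0.743 to 9.94 ± 3.16 CPM in Ctrl and from 2.58 ± 1.51 to 12.5 ± 1.04 CPM in cKO (adjusted p = 0.00725 and 0.00359). The cholesterol exporter *Abca1* rose by 1.41 and 1.06 on the log2 scale (adjusted p = 0.0373 and 0.00303) and the apolipoprotein *Apoc2* by 3.56 and 2.52 (adjusted p = 0.0118 and 0.0128). *Apoe* was the fourth to rise in Ctrl (1.71, adjusted p = 0.0179). In cKO *Smpdl3a* rose by 0.69 and *Mylip*, whose product degrades the low-density lipoprotein receptor, fell by 0.44 (adjusted p = 0.0129 and 0.022). Under the block by mouse, 6 rose and 1 fell in Ctrl, while without Ctrl CL 3545 the count was 2. Between genotypes limma called 0 of 15 in each hemisphere, with 1 in IL and 2 in CL at an unadjusted p under 0.05, and the IL median was -0.01.

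Of 12 genes of tissue macrophages, 11 were tested between hemispheres, with 1 called in Ctrl and 3 in cKO, where 7.52% and 23.1% of all genes were called. The share in cKO was thus near that of all genes. *Hmox1*, the heme-degrading enzyme, rose in both genotypes, from 126 ± 51.5 to 1026 ± 292 CPM in Ctrl and from 73.4 ± 34.0 to 573 ± 230 CPM in cKO (adjusted p = 0.000387 and 0.00331). In cKO the phosphatidylserine receptor *Timd4* rose by 1.32 (adjusted p = 0.0359) and the iron exporter *Slc40a1* fell by 0.85 (adjusted p = 0.0276). In the fit blocked by mouse, *Slc40a1* and *Vcam1* fell in Ctrl, and in cKO *Timd4* lost its call (adjusted p = 0.0747) and *Id3* rose. The count in cKO was 1 without cKO CL 791 or cKO IL 784. Between genotypes limma called 0 of 11 in IL and 0 of 10 in CL, with 3 and 1 at an unadjusted p under 0.05, and 1 each without Ctrl IL 3546 and Ctrl CL 3551. Of the 3 in IL, *Hmox1* and *Slc40a1* had the lower mean in cKO, as did *Cd5l*, with log2 differences of -0.88 and -0.65 (adjusted p = 0.358 and 0.268). *Timd4* had the higher mean in cKO, 8.52 against 1.94 CPM (adjusted p = 0.177), and the list median was -0.15.

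Markers of other macrophages and of blood cells were read beside *Cd5l*, and their part in its values was not tested. The summed level of 11 border-associated macrophage markers in IL was 764 to 1603 CPM in Ctrl and 531 to 1039 CPM in cKO. The 11 infiltrating monocyte markers summed to 202 to 468 CPM in Ctrl IL and 256 to 342 CPM in cKO IL, and the 10 neutrophil markers to 892 to 1440 CPM and 894 to 1139 CPM. The genotypes thus overlapped in IL for each list. *Csf3r* was the largest part of the neutrophil sums in IL, with means of 553 CPM in Ctrl and 636 CPM in cKO. Among single border-associated macrophage markers, chosen after their values were seen, the IL means of Ctrl and cKO were 94.5 and 47.7 CPM for *Pf4* and 406 and 217 CPM for *Stab1*, differences that were not called (adjusted p = 0.837 and 0.5). Others went the opposite way, with IL means of 28 and 37.7 CPM for *Siglec1*, 9.47 and 11.65 CPM for *Cd209f* and 31.0 and 31.9 CPM for *Cbr2*. The rest of that list had the lower IL mean in cKO. In CL the monocyte sums were 126 to 962 CPM in Ctrl and 123 to 290 CPM in cKO, the border-associated macrophage sums 503 to 1140 and 310 to 795 CPM, and the neutrophil sums 1406 to 8330 and 1333 to 2391 CPM, so the genotypes overlapped there too. No marker of the 3 lists was at 0 in all libraries of a group. Between genotypes limma called 0 of 11, 0 of 11 and 0 of 10 of these markers in IL, with 2, 1 and 0 at an unadjusted p under 0.05, and medians of -0.08, -0.02 and -0.15. In CL it called 0 of them, with 4, 1 and 3 at an unadjusted p under 0.05, and medians of -0.43, -0.26 and -1.17, beside -0.01 over all genes. The border-associated macrophage count was 1 in IL without Ctrl IL 3546 and 2 in CL without cKO CL 3592.

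Between hemispheres, 4 of the 11 monocyte markers rose in Ctrl and 6 in cKO, where 4.18% and 12.3% of all genes rose. *Ccr2*, the chemokine receptor of inflammatory monocytes, rose from 35.4 ± 4.39 to 73.8 ± 13.9 CPM in Ctrl (adjusted p = 0.00364), and *F10* rose by 3.28 and 3.23 in the 2 genotypes (adjusted p = 0.00298 and 0.00195). *Ms4a4c* rose by 1.37 and 1.93, and *Vcan* by 1.12 and 1.31 (adjusted p = 0.0219, 0.00346, 0.0278 and 0.0434), and *S100a4* by 1.52 in cKO (adjusted p = 0.0282). The count was 2 in Ctrl without Ctrl CL 3545 or 3546 or Ctrl IL 3541, and 3 in cKO without cKO CL 788 or 791 or cKO IL 791. Blocked by mouse, it was 7 in each genotype, of which 5 rose in Ctrl and 7 in cKO. Of the border-associated macrophage markers *Ms4a7* and *Siglec1* rose in both genotypes, *Cd209f* fell in both, and *Cbr2* fell in Ctrl, that is 4 of 11 in Ctrl and 3 of 11 in cKO, where 7.52% and 23.1% of all genes were called. Blocked by mouse, 7 of the 11 were called in each genotype, where 20.5% and 17.6% of all genes were. Without single libraries the count of 4 in Ctrl became 1 (Ctrl CL 3546, Ctrl IL 3545), 2 (Ctrl CL 3551, Ctrl IL 3541 or 3551) or 7 (Ctrl IL 3546), and that of 3 in cKO became 5 (cKO CL 3592). Neutrophil markers went the other way. In cKO 6 of 10 fell, where 10.8% of all genes did, or 3 without cKO IL 784 and 0 with all 14 libraries in a single fit, with log2 differences of -1.97 for *Camp*, -1.90 for *Ngp*, -1.79 for *Ltf* and -1.46 for *S100a8* (adjusted p = 0.00522, 0.00461, 0.00906 and 0.0246). In Ctrl limma called 0 of 10 with 7 at an unadjusted p under 0.05, and 8 fell with the mouse as a block, as did 5 without Ctrl CL 3551.

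The genes whose pattern over the 14 libraries was most like that of each gene were sought by Pearson's r on log2 values among 9755 genes with a mean of at least 3 on that scale. The libraries fall into 4 groups, which raises such values, and they are given as a description. For *Fcrls* the closest were *Tpm3* (r = 0.995), *AI506816* (0.995), *Ldhb* (0.990), *Gm5514* (0.982) and *Capza1* (0.974), of which *Tpm3* and *Capza1* are also on chromosome 3. For *Fcrl1* they were *Zdhhc14* (0.973), *Fcrls* (0.958), *Ldhb* (0.955), *AI506816* (0.948) and *Tpm3* (0.945). For *Cd5l* they were *Stom* and *Twf1* (0.971 each), *Slc48a1* and *Tnfsf12* (0.967 each) and *Dnase1l1* (0.965), and its r with *Fcrls* was 0.261 and with *Fcrl1* 0.25.

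After subtraction of the group means, *Fcrls* and *Fcrl1* no longer ran together (r = -0.325), and *Cd5l* had an r of 0.0579 with *Fcrls* and 0.344 with *Fcrl1*. The closest genes within groups were then *4930503L19Rik*, *2810006K23Rik*, *Asf1a*, *Cryl1* and *Taf5* for *Fcrls* (0.923 to 0.900), and *Gpr146*, *Matk*, *Zfp276*, *Pink1* and *Tmem64* for *Fcrl1* (0.945 to 0.895). For *Cd5l* they were *Htr2b*, *Dnase1l1*, *Cd38*, *Stom* and *AB124611* (0.903 to 0.869). *Stom* and *Dnase1l1* were thus close to *Cd5l* by both measures. No gene close to *Fcrls* or *Fcrl1* over all libraries was among the 5 closest within groups.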

How the data were processed

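CD11b+ cells were sorted from both hemispheres of Ctrl and cKO mice and sequenced from Smart Seq v4 libraries. The authors aligned reads with STAR to mm10 (GRCm38), processed them in Partek Flow 8.0 and deposited CPM per gene under a name that says raw counts, with each library summing to 1000000. Of values under 100 reads, 75.3% to 81.1% were whole multiples of a single read within 0.03 and the rest were fractions, so no count test was run. The deposited CPM of 33939 genes entered, of which 33802 identifiers matched GENCODE M21. The deposited tables of the authors' own comparisons (p-values, fold changes, group means) were not used, 0 columns lacked a sample, and the gene deleted in cKO mice is not reported here.

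CPM were divided by unweighted trimmed-mean (TMM) factors (0.87 to 1.12) and fitted as log2(CPM + 1) with limma 3.58.1 (R 4.3.3, trend), on the libraries compared or, for the interaction, on all 14. The pseudocount understates changes of low genes. Genes needed the CPM of 10 reads in as many libraries as the smaller group and 15 reads in total. Adjustment was by Benjamini-Hochberg over all genes tested. Transcripts were compared with blastn 2.17.0, and Python 3.11.15 with pandas 2.3.3 and matplotlib 3.10.9 did the rest. CPM ± values are SD over libraries, and intervals of depth cover counting error only.

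The genes and the lists were chosen with earlier results of these data known. Named are the 3 genes, the 5 genes nearest to *Fcrls* on each side that were tested in all 4 comparisons, those called between genotypes within 5 Mb, the 5 most alike to each gene by both measures and, of each list, the genes called (at most the 4 largest) and those it rests on. Less group means, the hemispheres of the same mouse correlated at 0.238 to 0.68 in 6 of 6 mice. For 19 pairs of other mice of a genotype the median was -0.269 and the highest 0.588. Since group means were subtracted, positive values of matched pairs push those of the other pairs down, so -0.269 is not a neutral baseline. The mouse number was taken as the animal and pairs the hemispheres. Replicates are different mice.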

Additional observations from a re-analysis of the deposited data

Results flagged for a closer look

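*Fcrl1* in Ctrl IL was flagged because 1 of the 4 libraries stood apart. Mouse 3546 had 35.7 CPM, where the others had 24.0 to 25.5 CPM, a gap of 0.868 of the group's range, past Dixon's 95% critical value for 4 samples. The same mouse was also the highest for *Fcrl1* in Ctrl CL, at 50.1 CPM, and its IL library was the shallowest, at 12.2 M reads. Without it the log2 difference between hemispheres in Ctrl was -0.47 instead of -0.38. Of the 6 combinations of gene and Ctrl hemisphere examined, this was the 1 flagged, and chance flags about 1 in 20.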

How the results depend on the processing

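Of 264 values of the 3 genes recomputed under other settings, 261 moved by less than the spread between replicates (1 SD). The others came with a pseudocount of 0.1, which widens differences of low levels by its construction: -2.70 and -4.25 for *Fcrl1* between genotypes in IL and CL, and 5.73 for *Cd5l* between hemispheres in Ctrl. The sign turned for *Cd5l* between genotypes in CL without cKO CL 788 (0.39) or Ctrl CL 3541 (0.01), and for *Fcrls* between hemispheres in Ctrl without Ctrl CL 3546 (-0.06) and with the deposited CPM without scaling (-0.03). It also turned for the *Fcrls* interaction, 0.02 with all libraries, in 5 of the 14 fits without a library (down to -0.08). Leaving out single libraries gave -2.57 to -1.80 for *Cd5l* between genotypes in IL. Calls among neighbours within 5 Mb moved more, and the cause was not tested beyond what the settings themselves change. Windows of 1 and 10 Mb gave 1 and 8 between genotypes in IL, 0 and 9 in CL, 0 and 9 between hemispheres in Ctrl, and 3 and 54 in cKO. A fold change of at least 2 gave 1 in Ctrl and 7 in cKO. The fit of all 14 libraries gave 7 between genotypes in CL, 11 between hemispheres in Ctrl and 4 in cKO. The deposited CPM without scaling gave 2 between genotypes in IL and 6 between hemispheres in Ctrl, where no filter gave 1 and at least 10 reads in every library gave 5. Leaving out single libraries gave 1 to 5 between genotypes in IL, 2 to 3 in CL, 1 to 9 between hemispheres in Ctrl and 9 to 28 in cKO. Of 666 list counts, 578 stayed within 1.5 times. Between hemispheres, the fit of all 14 libraries gave 0 neutrophil, 1 LXR and 3 monocyte genes in cKO, and 7 neutrophil and 7 LXR genes in Ctrl, where no filter gave 4 homeostatic, 2 B cell, 2 LXR, 2 monocyte and 1 border-associated macrophage genes.

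With the mouse as a replicate block between hemispheres, calls among the neighbours were 20 in Ctrl, and as a random effect over all 14 libraries 23 in Ctrl, 20 in cKO and 7 between genotypes in CL. The block moved no value of the 3 genes by 1 SD, and its changes to list calls stand beside the lists, except *Cd79b*, which fell in Ctrl, and *Retnlg* and *Ccr2*, which gained calls in cKO. Depth limits *Fcrl1* and *Cd5l* in cKO CL, which rest on 30 and 13 reads at the lowest.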
